A study of Mus musculus with 12 samples.

Results

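The enzymes that make serine and pass its carbon to folate were followed in the left ventricle of mice that overexpress CnAb1 and of wild-type mice. They are 10 genes, 5 cytosolic (Phgdh, Psat1, Psph, Shmt1 and Mthfd1) and 5 mitochondrial (Shmt2, Mthfd1l, Mthfd2, Mthfd2l and Aldh1l2), out of 33026 genes on the array, and were chosen by name for their place in the pathway. All 10 were measured, by 15 probes, and all 15 probes were kept after the filter on dim signals. CnAb1 is a splicing variant of calcineurin A beta, the catalytic subunit of a calcium-dependent phosphatase. The 4 groups of C57/Bl6 mice were CnAb1 transgenic overexpressing hearts after TAC, the same genotype after sham surgery, wild-type hearts after TAC, and wild-type hearts after sham surgery, with 3 arrays in each. TAC is a banding of the aorta that raises the pressure against which the left ventricle pumps. By the protocol every heart was taken 21 days after surgery, although the time field of the sham samples reads 0. For the transgene's promoter and the age of the mice, no source used here gives details. Nothing in the labels ties an array to an animal, and the p-values below therefore reflect array-to-array spread only, which may be technical.

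Serine is made from the glycolytic intermediate 3-phosphoglycerate by 3 enzymes acting in turn in the cytosol: Phgdh, the dehydrogenase that commits carbon to the pathway, Psat1, the aminotransferase that adds the amino group, and Psph, the phosphatase that releases serine. Serine hydroxymethyltransferases then move a carbon unit of serine to tetrahydrofolate and leave glycine. In mitochondria Mthfd2 and Mthfd2l oxidise this unit, Mthfd1l releases it as formate, and Aldh1l2 oxidises it to carbon dioxide with production of NADPH. In the cytosol Mthfd1 takes formate back onto folate for the synthesis of purines, thymidylate and methionine. Mthfd2 is known for high expression in embryonic and cancer cells and low expression in most adult tissues, and Phgdh, Psat1 and Mthfd2 are known targets of the stress-induced transcription factor Atf4.

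The stretch of 250 bases before the start site was read for 9 of the 10 enzymes, all but Aldh1l2. These stretches come from RefSeq sequence of the mouse build GRCm38.p6. Those of Mthfd2, Phgdh and Psat1, the members with the largest genotype difference in sham hearts, are shown beside that of Mthfd2l, the member with the smallest such difference, whose enzyme works at the same step as Mthfd2. They lie on chr6:83317605-83317854, minus strand, for Mthfd2, chr3:98339970-98340219, minus strand, for Phgdh, chr19:15925060-15925309, minus strand, for Psat1, and chr5:90930946-90931195, plus strand, for Mthfd2l. Each runs 5′ to 3′ on the strand of its gene, and capitals mark CCAAT or its complement ATTGG, a motif picked after the sequences and the levels had been seen.
Mthfd2: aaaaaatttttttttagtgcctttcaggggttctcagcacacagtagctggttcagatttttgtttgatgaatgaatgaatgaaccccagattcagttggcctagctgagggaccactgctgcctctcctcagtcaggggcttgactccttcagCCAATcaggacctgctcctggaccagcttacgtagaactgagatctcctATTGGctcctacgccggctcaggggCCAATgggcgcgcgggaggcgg
Phgdh: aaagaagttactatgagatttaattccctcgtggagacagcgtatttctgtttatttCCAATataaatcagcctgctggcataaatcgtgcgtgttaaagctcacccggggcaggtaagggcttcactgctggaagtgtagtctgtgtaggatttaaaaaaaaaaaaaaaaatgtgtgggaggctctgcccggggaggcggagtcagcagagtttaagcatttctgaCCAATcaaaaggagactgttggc
Psat1: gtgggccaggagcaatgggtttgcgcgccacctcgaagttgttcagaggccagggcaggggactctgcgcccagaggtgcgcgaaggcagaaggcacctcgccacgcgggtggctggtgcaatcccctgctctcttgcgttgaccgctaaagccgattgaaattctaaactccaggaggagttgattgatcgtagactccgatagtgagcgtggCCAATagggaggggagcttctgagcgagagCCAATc
Mthfd2l: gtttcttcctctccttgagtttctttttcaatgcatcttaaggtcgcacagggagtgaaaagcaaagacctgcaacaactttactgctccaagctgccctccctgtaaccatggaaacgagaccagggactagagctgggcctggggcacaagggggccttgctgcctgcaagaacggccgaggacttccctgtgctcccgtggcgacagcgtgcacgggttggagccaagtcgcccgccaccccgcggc
The motif occurred 3 times in the Mthfd2 sequence, 2 times each in those of Phgdh, Psat1 and Psph, 1 time each in those of Shmt1 and Mthfd1, and 0 times in those of Shmt2, Mthfd1l and Mthfd2l. A second listed Psat1 start site had 0 copies in its 250 bases. At least 1 copy on either strand was present in 33.8% of 32851 mouse promoters of that length, and at least 2 copies in 10.1% of them. Among the 9 enzymes 6 had at least 1 copy and 4 at least 2. An enzyme was counted by its start site with the most copies, whereas the shares are over single promoters. Because the motif was picked after the sequences and levels had been seen, these counts are no test of enrichment. The motif TGATGNAA, the core of the composite site that Atf4 binds with C/EBP proteins, was searched on both strands of the same promoters extended 50 bases past the start site. It was present in 3.97% of the 32851 windows and in 0 of the 9 enzymes' windows, which says only that these letters are not there. Asns and Trib3, stress genes taken up below, each had 1 match to TGATGNAA and 0 copies of CCAAT.

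Levels are given as log2 of the array's processed signal minus the 75th percentile of that array, so 0 is the 75th percentile and a step of 1 is a factor of 2. They compare arrays for 1 probe and do not compare different genes. For the 5 enzymes with a pair of probes, Phgdh, Psat1, Psph, Shmt1 and Mthfd1l, the brighter probe was tested. Transgenic sham array 2 had a raised background, with 37.2% of probes well above background against 60.3% to 78.2% on the other arrays, and the tests of the 10 enzymes, and the counts of the gene lists around them, were also computed without it. Before scaling, the 75th percentile was 9.48 to 9.86 on transgenic TAC arrays, 9.50 to 9.51 on transgenic sham arrays, 9.88 to 9.95 on wild-type TAC arrays and 8.97 to 9.24 on wild-type sham arrays. Ppp3cb, the gene of which CnAb1 is a variant, was at 1.17 to 1.40 on transgenic sham arrays and at 1.56 to 1.63 on wild-type sham arrays. No source used here says whether its probe reads the CnAb1 variant, and so it is no check of the genotype. The 8 cardiomyocyte markers, Myh6, Tnnt2 and Myl2 among them, were well above background on all 12 arrays. Tests are limma moderated tests, two-sided, with Benjamini-Hochberg adjustment over the 25321 genes tested, and a gene passed at an adjusted p under 0.05. In heart tissue, a change in the number of cells of a type and a change in RNA per cell cannot be told apart.

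**Figure D1:**
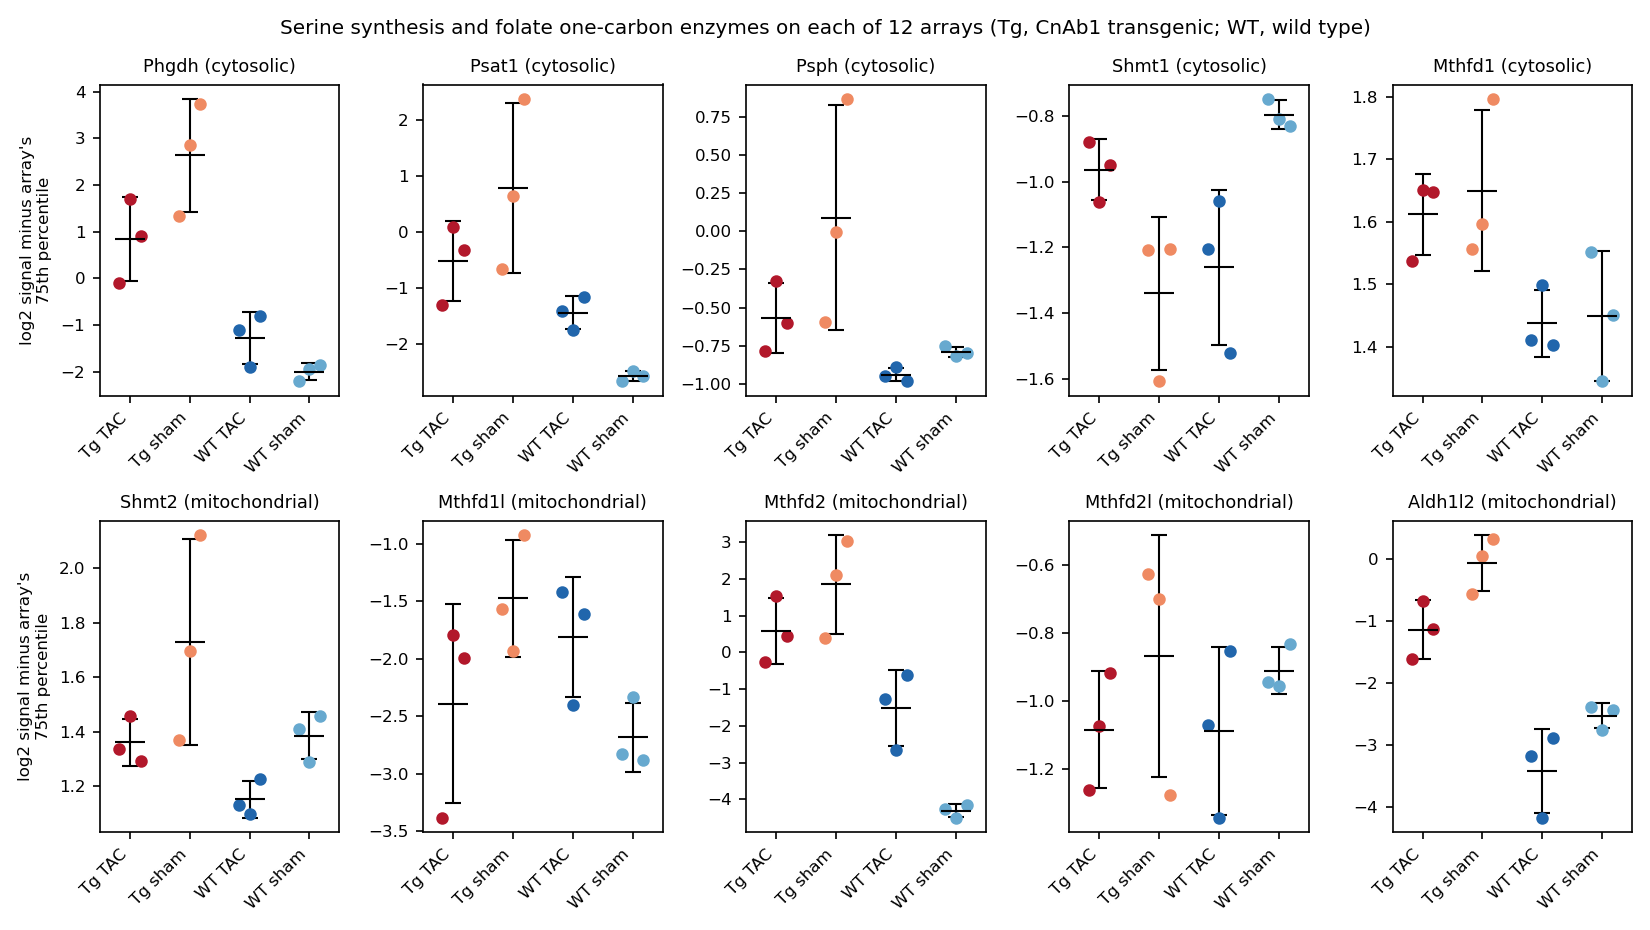
Level of each of the 10 enzymes on each array, as log2 signal minus the array's 75th percentile. Points are arrays, the bar is the group mean and the whiskers are 1 SD over 3 arrays. Phgdh, Psat1, Mthfd2 and Aldh1l2 stand higher on transgenic sham than on wild-type sham arrays with no overlap, while Mthfd2l overlaps between all groups. The vertical scale differs between panels.

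The first comparison, of transgenic with wild-type hearts after sham surgery, shows what the transgene goes with where the aorta was not banded. Of the 10 enzymes 4 rose in transgenic sham hearts and 0 fell, 2 of 5 cytosolic (Phgdh and Psat1) and 2 of 5 mitochondrial (Mthfd2 and Aldh1l2). Of all genes tested 1.44% passed in this comparison, 0.774% in the higher and 0.663% in the lower direction. The median difference was 1.04 over the 10 enzymes, 0.88 over the cytosolic and 1.21 over the mitochondrial ones, against -0.05 over all genes tested. For 7 of the 10 the transgenic sham arrays lay wholly above the wild-type sham arrays, and for 1, Shmt1, wholly below, where 22.2% of all genes had groups that did not overlap, 8.06% higher and 14.2% lower.

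Phgdh, the dehydrogenase at the entry to serine synthesis, was at 1.34, 2.86 and 3.72 on transgenic sham arrays, against -2.21, -1.94 and -1.85 on wild-type sham arrays. Every transgenic sham array lay more than 3 log2 units above every wild-type sham array, and transgenic sham array 1 was the lowest of its group. Its level rose by 4.64 ± 0.60 (standard error; 24.9-fold), with a limma adjusted p of 0.00712. The dimmer Phgdh probe read 1.05, 2.42 and 3.35 on transgenic sham arrays against -2.44, -2.12 and -2.40 on wild-type sham arrays, a difference of 4.59 ± 0.58 (adjusted p = 0.00733 by limma over all probes, of which 1.22% passed). Both probes thus put the arrays of each group apart by nearly the same distance.

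Psat1, the aminotransferase of the next step, was at -0.66, 0.63 and 2.38 on transgenic sham arrays, against -2.67, -2.50 and -2.57 on wild-type sham arrays. The groups did not overlap, but the transgenic sham arrays spread over 3 log2 units while the wild-type sham arrays lay close together. Its level rose by 3.37 ± 0.64 (10.3-fold; limma adjusted p = 0.0382). The dimmer Psat1 probe differed by 1.34 ± 0.39 and did not pass (adjusted p = 0.126 by limma over all probes). That probe was not well above background on transgenic sham array 2 and wild-type sham array 2. The Psat1 call was also lost under median scaling, with no filter on dim probes, over the mean of both probes and under normexp background correction (limma adjusted p from 0.0501 to 0.189).

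Psph, the phosphatase that completes serine synthesis, was at -0.60, -0.0042 and 0.87 on transgenic sham arrays, against -0.75, -0.82 and -0.80 on wild-type sham arrays. The groups did not overlap, with transgenic sham array 1 only just above the wild-type arrays. The difference of 0.88 ± 0.30 did not pass (limma adjusted p = 0.173), nor did that of the dimmer probe, 0.94 ± 0.35 (adjusted p = 0.209). Without transgenic sham array 1 Psph differed by 1.22 and passed (adjusted p = 0.0347). For Phgdh, Psat1 and Psph the tested probes thus gave 4.64, 3.37 and 0.88, and the differences between these sizes were not tested. Sizes from different probes are not a ranking of the enzymes, as the 2 Psat1 probes alone gave 3.37 and 1.34.

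Mthfd2, the mitochondrial methylenetetrahydrofolate dehydrogenase, had the largest difference by the tested probes of the 10, which does not rank the enzymes. It was at 0.40, 2.11 and 3.04 on transgenic sham arrays, against -4.27, -4.50 and -4.14 on wild-type sham arrays. On wild-type sham array 2 it was not well above background, and on the other wild-type sham arrays it was. Mthfd2 rose by 6.15 ± 0.72 (71.2-fold), with a limma adjusted p of 0.00425. With normexp background correction the difference was 4.64 (adjusted p = 0.0167). All transgenic sham arrays lay more than 4 log2 units above all wild-type sham arrays for Mthfd2.

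Aldh1l2, the mitochondrial formyltetrahydrofolate dehydrogenase, was at -0.57, 0.03 and 0.31 on transgenic sham arrays, against -2.38, -2.76 and -2.44 on wild-type sham arrays. The transgenic sham arrays lay apart from the wild-type ones and within 1 log2 unit of each other. It rose by 2.45 ± 0.36 (5.48-fold; limma adjusted p = 0.0146). Under normexp background correction it differed by 1.93 and did not pass (adjusted p = 0.203).

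The tested probes of the other mitochondrial enzymes gave smaller differences. Mthfd1l, which releases formate, was at -1.56, -1.93 and -0.92 on transgenic sham arrays, against -2.83, -2.33 and -2.88 on wild-type sham arrays. On transgenic sham array 2 it was not well above background, so the lack of overlap rests in part on a value at background. The difference of 1.21 ± 0.44 did not pass (limma adjusted p = 0.204). Shmt2, the mitochondrial serine hydroxymethyltransferase, was at 1.37, 1.70 and 2.12 on transgenic sham arrays, against 1.41, 1.29 and 1.46 on wild-type sham arrays, and the groups overlapped (0.34 ± 0.17, adjusted p = 0.328). Mthfd2l was at -0.63, -0.70 and -1.28 on transgenic sham arrays, against -0.95, -0.96 and -0.83 on wild-type sham arrays. Its difference was 0.04 ± 0.19 (adjusted p = 0.927), beside 6.15 for Mthfd2, which works at the same step.

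In the cytosol, Shmt1, the cytosolic serine hydroxymethyltransferase, was at -1.21, -1.61 and -1.20 on transgenic sham arrays, against -0.75, -0.81 and -0.83 on wild-type sham arrays. It was the only one of the 10 with all transgenic sham arrays below all wild-type sham arrays. The difference of -0.54 ± 0.15 did not pass (limma adjusted p = 0.11), and the dimmer Shmt1 probe differed by -0.10 ± 0.31 (adjusted p = 0.889). With dim probes filtered more strictly, on all 12 arrays, Shmt1 passed as lower (adjusted p = 0.0351), as did 9.1% of genes in either direction. Mthfd1, the trifunctional enzyme that loads formate onto folate, was at 1.56, 1.60 and 1.80 on transgenic sham arrays, against 1.55, 1.35 and 1.45 on wild-type sham arrays (0.20 ± 0.10, adjusted p = 0.359). Its transgenic sham arrays lay just above the wild-type ones, by a small margin.

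**Figure D2:**
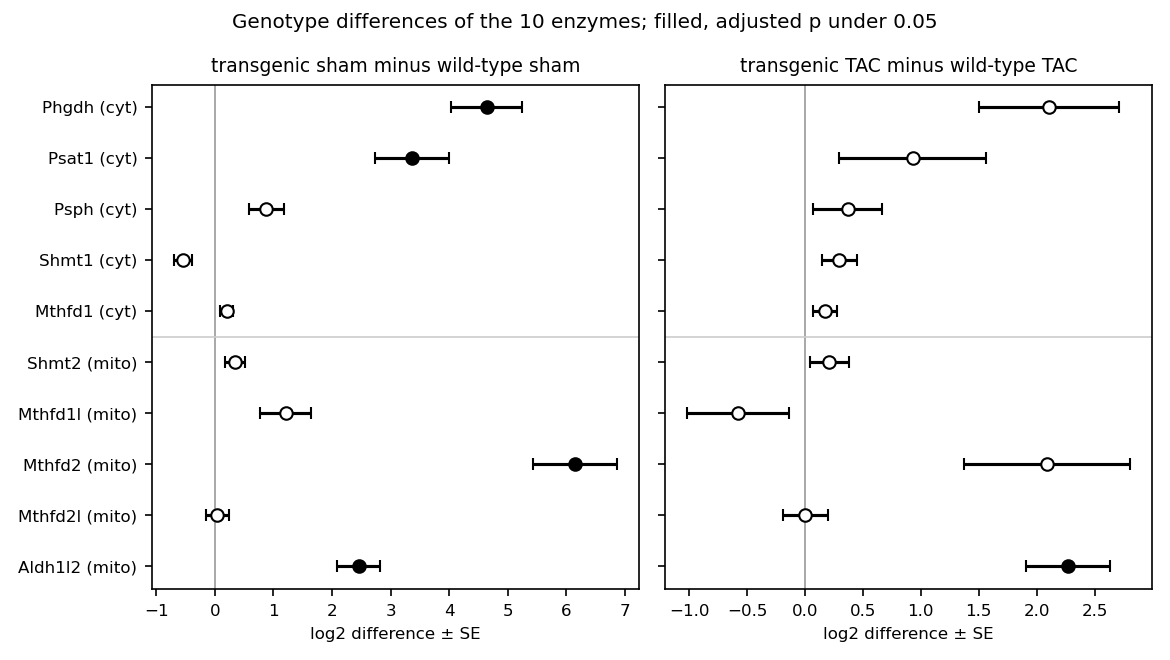
Log2 difference ± standard error between transgenic and wild-type hearts for each of the 10 enzymes, after sham surgery (left) and after TAC (right), 3 arrays a group. Filled points passed at an adjusted p under 0.05. Phgdh, Psat1, Mthfd2 and Aldh1l2 are filled after sham surgery and Aldh1l2 alone after TAC.

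The arrays lay on 5 slides. On the slide that held both genotypes after sham surgery, with 1 transgenic against 2 wild-type arrays, the differences were 6.49 for Mthfd2, 4.93 for Phgdh, 3.22 for Psat1 and 2.60 for Aldh1l2. The transgenic array there is transgenic sham array 2, the one with raised background. With slide as a fixed block the differences were 5.52, 4.23, 2.72 and 2.11 for the same enzymes, and none of the 4 passed (limma adjusted p from 0.116 to 0.168), while 0.17% of all genes did. In a fit of the sham groups alone none passed either (adjusted p from 0.0663 to 0.194), with 0.138% of all genes passing. Mthfd2 and Phgdh passed on leaving out any of the 12 arrays (adjusted p at most 0.0293 and 0.0446). Aldh1l2 did not pass without transgenic sham array 2 or any 1 of the wild-type sham arrays (adjusted p from 0.0581 to 0.0716). Psat1 did not pass without transgenic sham array 2, transgenic TAC array 3, wild-type TAC array 1 or 2, or any 1 of the wild-type sham arrays (adjusted p from 0.0528 to 0.148).

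The spread of these enzymes between transgenic sham arrays was large. The SD within that group was 1.52 for Psat1, 1.34 for Mthfd2 and 1.21 for Phgdh, against a median of 0.32 over all genes tested. On wild-type sham arrays it was 0.09, 0.18 and 0.19 for the same enzymes, against a median of 0.16. The fit shares a single spread for a gene over all groups, so its standard errors and p-values do not reflect this inequality. Transgenic sham array 3 was the highest of its group for 9 of the 10 enzymes, and array 1 the lowest for 7. In transgenic TAC hearts array 2 was the highest for 8 of the 10 and array 1 the lowest for 8. The mean level of 10 stress regulators and targets, Atf4 and Asns among them, was 1.62, 2.46 and 3.03 on transgenic sham arrays 1, 2 and 3, the same order as for Phgdh, Psat1 and Mthfd2. Its part in the spread of the enzymes was not tested.

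**Figure D3:**
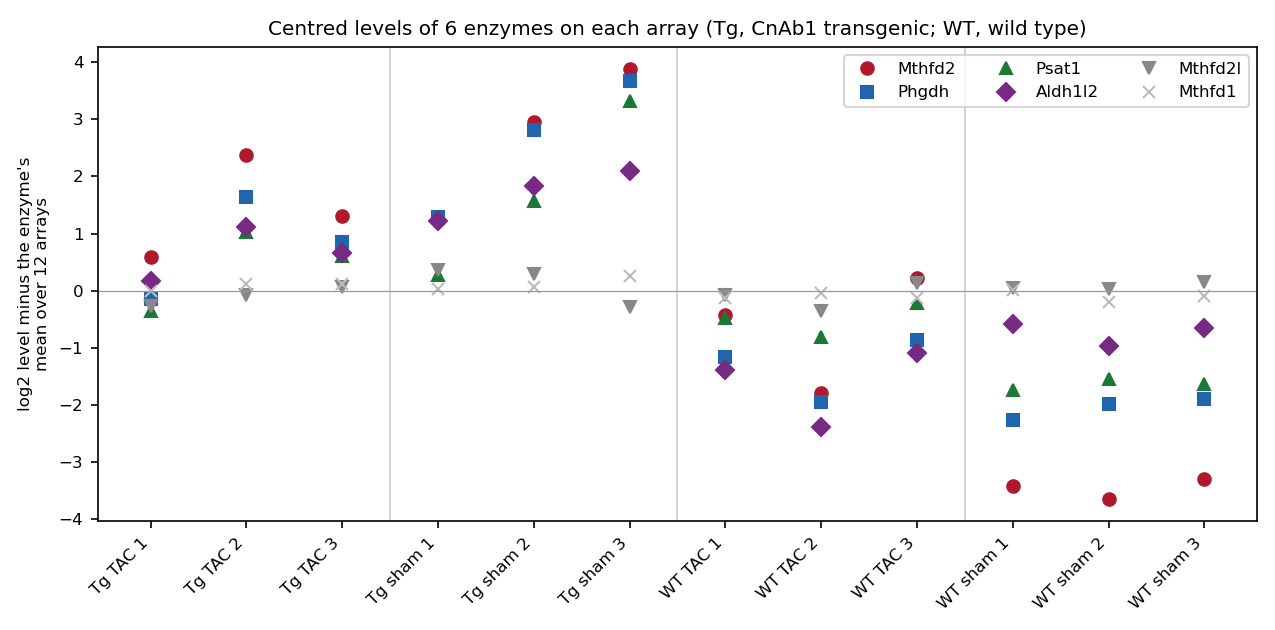
Levels of 6 enzymes on each of the 12 arrays, as log2 signal minus the enzyme's mean over the arrays. Mthfd2, Phgdh, Psat1 and Aldh1l2 lie furthest above 0 on transgenic sham array 3 and below 0 on all wild-type sham arrays, while Mthfd1 and Mthfd2l stay near 0 throughout.

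The second comparison, of transgenic with wild-type hearts after TAC, shows the genotype difference under pressure overload. Of the 10 enzymes 1, Aldh1l2, rose in transgenic TAC hearts and 0 fell, where 4% of all genes passed, 2.14% higher and 1.86% lower. The median was 0.33 over the enzymes and 0.05 over all genes tested. For 6 of the 10 the transgenic TAC arrays lay wholly above the wild-type TAC arrays, where 32.9% of all genes had groups that did not overlap, 19.3% higher and 13.6% lower.

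Aldh1l2 was at -1.62, -0.68 and -1.13 on transgenic TAC arrays, against -3.18, -4.17 and -2.89 on wild-type TAC arrays. The groups were more than 1 log2 unit apart. It rose by 2.27 ± 0.36 (4.83-fold; limma adjusted p = 0.0146), a difference close to the 2.45 of sham hearts. On the slide that held both genotypes after TAC, with 1 transgenic against 2 wild-type arrays, it differed by 1.91. Aldh1l2 did not pass without transgenic TAC array 2 (adjusted p = 0.051), with slide as a fixed block (adjusted p = 0.279), in a fit of the TAC groups alone (adjusted p = 0.079) or with normexp background correction (1.15, adjusted p = 0.388).

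Phgdh was at -0.10, 1.70 and 0.91 on transgenic TAC arrays, against -1.12, -1.89 and -0.81 on wild-type TAC arrays. The transgenic arrays lay above the wild-type ones, and the difference of 2.11 ± 0.60 did not pass (limma adjusted p = 0.0786). Mthfd2 was at -0.26, 1.53 and 0.46 on transgenic TAC arrays, against -1.28, -2.65 and -0.62 on wild-type TAC arrays, again with no overlap (2.09 ± 0.72, adjusted p = 0.123). On the shared slide Phgdh differed by 1.87 and Mthfd2 by 1.40. Without transgenic sham array 1, which enters only through the shared estimate of the spread, Phgdh passed (adjusted p = 0.0443). Psat1 was at -1.30, 0.08 and -0.33 on transgenic TAC arrays, against -1.42, -1.75 and -1.16 on wild-type TAC arrays. Its groups overlapped, and it differed by 0.93 ± 0.64 (adjusted p = 0.432).

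The remaining enzymes differed by at most 0.58 in size after TAC. Mthfd1l was at -3.38, -1.79 and -1.99 on transgenic TAC arrays, against -1.42, -2.40 and -1.61 on wild-type TAC arrays, the only one of the 10 with a negative difference (-0.58 ± 0.44, limma adjusted p = 0.485). Its groups overlapped, with transgenic TAC array 1 the lowest of all 12 arrays. Psph was at -0.78, -0.33 and -0.60 on transgenic TAC arrays, against -0.95, -0.89 and -0.98 on wild-type TAC arrays (0.37 ± 0.30, adjusted p = 0.515). The differences of Shmt1, Mthfd1 and Shmt2 were 0.30, 0.17 and 0.21 with adjusted p from 0.278 to 0.512. Mthfd2l was at -1.26, -1.07 and -0.92 on transgenic TAC arrays, against -1.07, -1.35 and -0.85 on wild-type TAC arrays.

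The third comparison, of TAC with sham surgery in wild-type hearts, addresses the effect of pressure overload where no transgene is present. Of the 10 enzymes 1, Mthfd2, rose and 0 fell, where 21.2% of all genes passed, 8.7% higher and 12.5% lower. The median was -0.08 over the enzymes and -0.13 over all genes tested. The groups did not overlap for 6 of the 10, Psat1 and Mthfd2 higher and Psph, Shmt1, Shmt2 and Aldh1l2 lower, against 46.8% of all genes, 17.5% higher and 29.3% lower. With 10 enzymes, neither count is read as a departure from the share of all genes, which was not tested.

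Mthfd2 was at -1.28, -2.65 and -0.62 on wild-type TAC arrays, against -4.27, -4.50 and -4.14 on wild-type sham arrays. Each wild-type TAC array lay above all wild-type sham arrays, with wild-type TAC array 2 the lowest of its group. On wild-type sham array 2 it was not well above background. Mthfd2 rose by 2.79 ± 0.72 (6.91-fold; limma adjusted p = 0.0221). On the slide that held both surgeries, with 1 TAC against 2 sham arrays, it differed by 1.74. The call was lost with slide as a fixed block (2.71, adjusted p = 0.147) and with normexp background correction (1.77, adjusted p = 0.132). It was also lost without wild-type TAC array 1 or 3 or any 1 of the wild-type sham arrays (adjusted p from 0.0573 to 0.0892).

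Psat1 was at -1.42, -1.75 and -1.16 on wild-type TAC arrays, against -2.67, -2.50 and -2.57 on wild-type sham arrays. The groups did not overlap, and the difference of 1.14 ± 0.64 did not pass (limma adjusted p = 0.248). In a fit of the wild-type groups alone, whose spread was smaller than that of the transgenic groups, it passed (adjusted p = 0.0122). Phgdh was at -1.12, -1.89 and -0.81 on wild-type TAC arrays, against -2.21, -1.94 and -1.85 on wild-type sham arrays, and the groups overlapped (0.73 ± 0.60, adjusted p = 0.453). The dimmer Psat1 probe differed by 0.17 ± 0.39.

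Shmt1 was at -1.20, -1.06 and -1.52 on wild-type TAC arrays, against -0.75, -0.81 and -0.83 on wild-type sham arrays. All wild-type TAC arrays lay below all wild-type sham arrays, and the difference of -0.46 ± 0.15 narrowly missed the threshold (limma adjusted p = 0.0529). It passed without transgenic sham array 2 or 3 or wild-type TAC array 2 (adjusted p from 0.0305 to 0.0494), and with the filter on all 12 arrays (adjusted p = 0.0192). Aldh1l2 was at -3.18, -4.17 and -2.89 on wild-type TAC arrays, against -2.38, -2.76 and -2.44 on wild-type sham arrays, with no overlap (-0.89 ± 0.36, adjusted p = 0.115). Aldh1l2 and Mthfd2, both mitochondrial, thus had differences of opposite sign. With array weights 7 of the 10 passed, Phgdh, Psat1, Mthfd1l and Mthfd2 higher and Shmt1, Shmt2 and Aldh1l2 lower, where 47.7% of all genes did.

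The difference was 0.87 ± 0.44 for Mthfd1l, -0.15 ± 0.30 for Psph, -0.23 ± 0.17 for Shmt2, -0.18 ± 0.19 for Mthfd2l and -0.01 ± 0.10 for Mthfd1 in wild-type hearts, and none passed. Mthfd1 was at 1.41, 1.50 and 1.40 on wild-type TAC arrays, against 1.55, 1.35 and 1.45 on wild-type sham arrays, so that its groups overlapped. The value for Mthfd1 turned positive under quantile normalization, in the deposited table and with slide as a block, and that for Psph over the mean of its probes and with slide as a fixed block.

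The fourth comparison, of TAC with sham surgery in transgenic hearts, gave no call. Limma called 0 of the 10 enzymes and 0 of all genes (0%). At an unadjusted p under 0.05 stood 6.22% of all genes and 3 of the enzymes, Phgdh, Aldh1l2 and Shmt1. In a fit of the transgenic groups alone 0 of the 10 passed as well. The median was -0.79 over the enzymes and -0.01 over all genes tested. The groups did not overlap for 2 of the 10, against 8.44% of all genes, 4.52% higher and 3.92% lower.

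Aldh1l2 was at -1.62, -0.68 and -1.13 on transgenic TAC arrays, against -0.57, 0.03 and 0.31 on transgenic sham arrays. The arrays of the groups did not overlap, though transgenic TAC array 2 and transgenic sham array 1 lay close together (-1.07 ± 0.36, limma adjusted p = 0.797). Shmt1 was at -0.88, -1.06 and -0.95 on transgenic TAC arrays, against -1.21, -1.61 and -1.20 on transgenic sham arrays, also without overlap (0.38 ± 0.15, adjusted p = 0.797). It was the only one of the 10 with a positive difference in transgenic hearts.

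Phgdh differed by -1.81 ± 0.60, Psat1 by -1.30 ± 0.64 and Mthfd2 by -1.27 ± 0.72 between transgenic TAC and transgenic sham hearts (limma adjusted p from 0.797 to 0.804), and for each the groups overlapped. On the slide that held both surgeries in transgenic hearts, with 1 array against 1, they differed by -0.43, 0.33 and 0.06. The TAC array there was transgenic TAC array 3 and the sham array was transgenic sham array 1, the lowest of its group for 7 of the 10 enzymes. Mthfd1l differed by -0.92 ± 0.44, Psph by -0.66 ± 0.30, Shmt2 by -0.37 ± 0.17, Mthfd2l by -0.22 ± 0.19 and Mthfd1 by -0.04 ± 0.10. Their adjusted p ranged from 0.797 to 0.945.

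**Figure D4:**
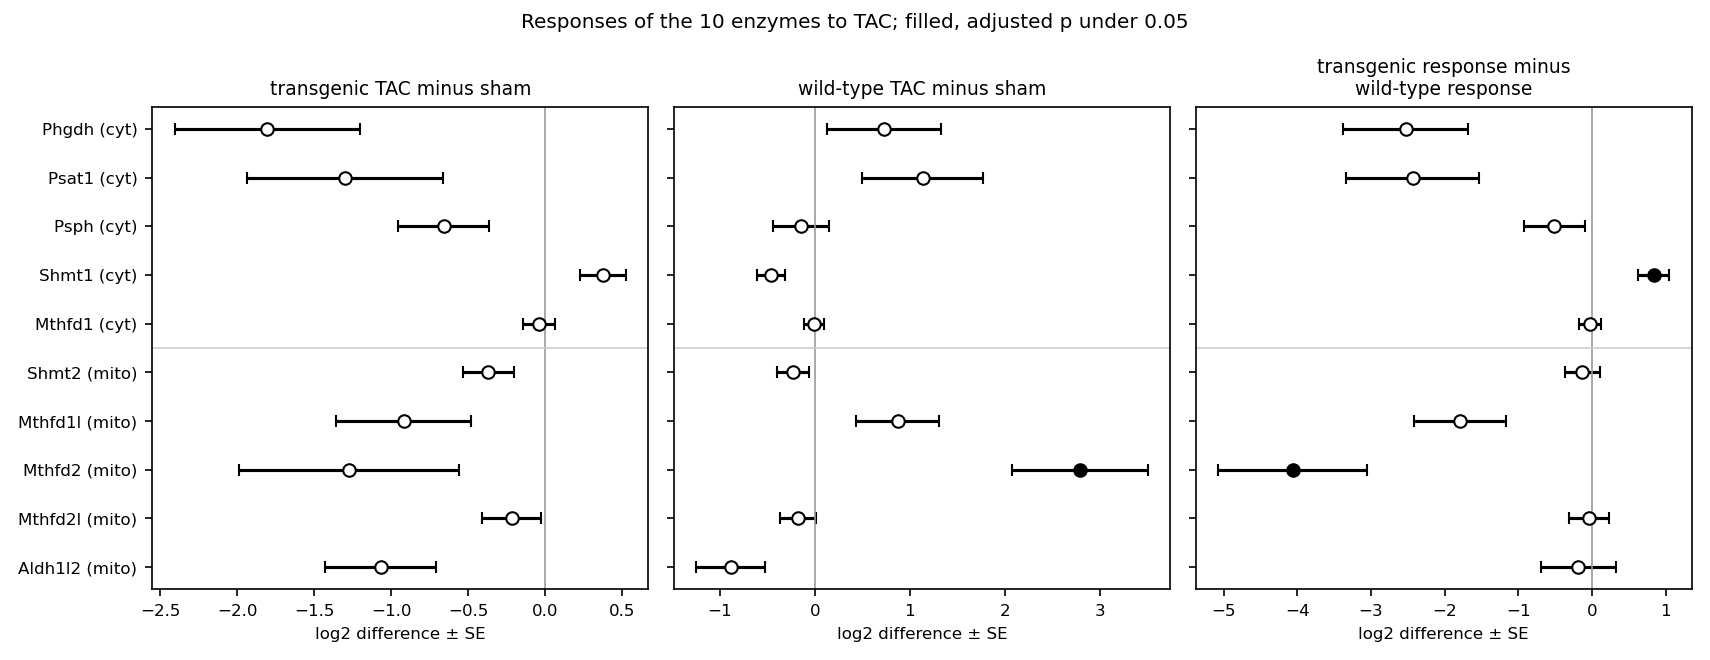
Log2 difference ± standard error between TAC and sham surgery for each enzyme in transgenic hearts (left) and wild-type hearts (middle), and the transgenic response minus the wild-type response (right), 3 arrays a group. Filled points passed at an adjusted p under 0.05: Mthfd2 in wild-type hearts, and Mthfd2 and Shmt1 for the difference between the responses.

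The fifth comparison tests whether the response to TAC differed between the genotypes, as the transgenic response minus the wild-type response. It uses the same arrays as the comparisons above, so the calls are not separate evidence. Of the 10 enzymes 2 passed, Shmt1 with a higher and Mthfd2 with a lower value in transgenic hearts, where 7.08% of all genes passed, 4.18% higher and 2.9% lower. The median was -0.35 over the enzymes and 0.10 over all genes tested.

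Mthfd2 differed by -1.27 ± 0.72 in transgenic and by 2.79 ± 0.72 in wild-type hearts, a difference in response of -4.06 ± 1.01 (limma adjusted p = 0.0436). Its level was lowest on the wild-type sham arrays, at or below -4.14, and at or above -2.65 on every other array. On wild-type sham array 2 it was not well above background. With normexp background correction the difference in response was -3.02 (limma adjusted p = 0.214). In order of group means Mthfd2 was highest in transgenic sham hearts (1.85 ± 1.34, SD, n = 3), then in transgenic TAC (0.57 ± 0.90), wild-type TAC (-1.52 ± 1.03) and wild-type sham hearts (-4.30 ± 0.18). The 2 transgenic groups overlapped, and the other neighbours in this order did not, although the difference between transgenic TAC and wild-type TAC did not pass.

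Shmt1 differed by 0.38 ± 0.15 in transgenic and by -0.46 ± 0.15 in wild-type hearts, a response that was higher by 0.84 ± 0.21 in transgenic hearts (limma adjusted p = 0.0454). Its dimmer probe gave 0.50 ± 0.44 (adjusted p = 0.52). Shmt1 was highest in wild-type sham hearts (-0.80 ± 0.04, SD, n = 3), then in transgenic TAC (-0.96 ± 0.09), wild-type TAC (-1.26 ± 0.24) and transgenic sham hearts (-1.34 ± 0.23). Transgenic TAC and wild-type TAC arrays, and wild-type TAC and transgenic sham arrays, overlapped.

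Both calls lay close to the threshold. Mthfd2 did not pass without transgenic TAC array 1 or 3, transgenic sham array 2 or 3, wild-type TAC array 1 or 3 or any 1 of the wild-type sham arrays (adjusted p from 0.0546 to 0.104). Shmt1 did not pass without any 1 of the transgenic TAC arrays, transgenic sham array 2, wild-type TAC array 1 or 3 or any 1 of the wild-type sham arrays (adjusted p from 0.0631 to 0.109). Neither passed under quantile normalization (adjusted p = 0.0575 for Mthfd2 and 0.0591 for Shmt1), median scaling, normexp background correction, with no filter or with slide as a fixed block.

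Phgdh (-2.53 ± 0.85, limma adjusted p = 0.099), Psat1 (-2.44 ± 0.90, adjusted p = 0.125) and Mthfd1l (-1.79 ± 0.62, adjusted p = 0.107) had differences in response below 0 that did not pass. Phgdh and Psat1 passed without transgenic sham array 1 (adjusted p = 0.0347 and 0.036), Phgdh with the filter on all 12 arrays (adjusted p = 0.0383), and Mthfd1l with array weights (adjusted p = 0.0426). Psph differed by -0.51 ± 0.42, Aldh1l2 by -0.18 ± 0.51, Shmt2 by -0.13 ± 0.24, Mthfd2l by -0.04 ± 0.27 and Mthfd1 by -0.03 ± 0.15. Of the 4 enzymes that rose in transgenic sham hearts, Aldh1l2 had the smallest difference in response in size.

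**Figure D5:**
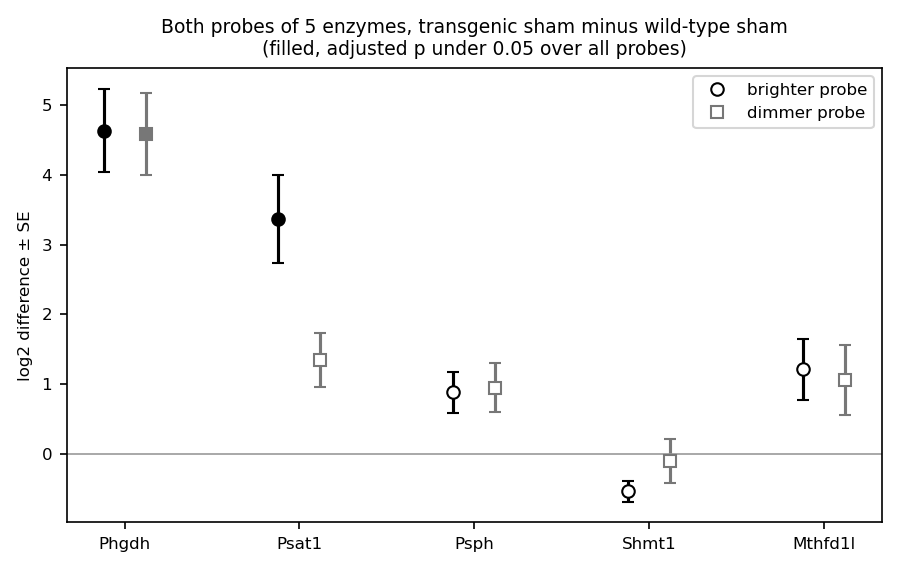
Log2 difference ± standard error between transgenic sham and wild-type sham hearts for both probes of the 5 enzymes that have a pair. Circles are the brighter, tested probe and squares the dimmer probe, and filled symbols passed over all probes. Both Phgdh probes are filled, and of the Psat1 probes the brighter one.

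The pairs of probes gave close values for 3 of the 5 enzymes in sham hearts, 4.64 and 4.59 for Phgdh, 0.88 and 0.94 for Psph and 1.21 and 1.06 for Mthfd1l. The Psat1 probes gave 3.37 and 1.34 and the Shmt1 probes -0.54 and -0.10. On transgenic sham array 2 the dimmer Psat1, Psph, Shmt1 and Mthfd1l probes, and the brighter, tested Mthfd1l probe, were not well above background. The order of the transgenic sham arrays was the same for both probes of Phgdh, Psat1, Psph and Mthfd1l, with array 3 the highest.

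Genes around the pathway were taken from 5 lists. Of 17 other folate genes, 8 genes of purine ring synthesis and 13 measured of 16 genes of the methionine cycle, betaine and transsulfuration, 0 passed in transgenic against wild-type sham hearts, with medians of -0.10, -0.05 and -0.01. The smallest p belonged to Mtr, methionine synthase (-0.67 ± 0.16, limma adjusted p = 0.0818), and Tyms, thymidylate synthase (0.37 ± 0.13, adjusted p = 0.185), among folate genes, to Atic, the last enzyme of purine ring synthesis (0.39 ± 0.11, adjusted p = 0.126), and to Gnmt, glycine N-methyltransferase (-1.18 ± 0.27, adjusted p = 0.0646). Of 19 genes of glycine cleavage and serine or glycine use 1 rose and 1 fell, where 1.44% of all genes passed. Sfxn1, the mitochondrial serine carrier, rose by 0.71 ± 0.10 (adjusted p = 0.013), and Gcat, which acts in the breakdown of threonine to glycine, fell (-0.90 ± 0.15, adjusted p = 0.0267).

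Of 10 stress regulators and targets linked to the pathway 2 rose in transgenic sham hearts and 0 fell, with a median of 1.29. Of all genes tested 1.44% passed there, 0.774% higher and 0.663% lower. Asns, asparagine synthetase, a known target of Atf4, rose by 5.28 ± 0.67 (limma adjusted p = 0.00632). Atf5, a transcription factor of the mitochondrial stress response, rose by 2.17 ± 0.42 (adjusted p = 0.0416). Without transgenic sham array 2 Asns and Sfxn1 passed (adjusted p = 0.0268 and 0.0249), and Atf5 and Gcat did not (adjusted p = 0.119 and 0.0752). These lists were drawn up with earlier results of the same arrays known and are not independent support for the enzymes.

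After TAC in wild-type hearts more of these genes passed, as did more genes of all kinds. Of all genes tested 21.2% passed, 8.7% higher and 12.5% lower. The counts of the lists were not tested against these shares. Of the 17 folate genes 3 rose and 3 fell, among them Fpgs, which adds glutamates to folate (0.46 ± 0.12, limma adjusted p = 0.0269), and Ggh, which removes them (0.47 ± 0.13, adjusted p = 0.0326), higher, and Mtr (-0.77 ± 0.16, adjusted p = 0.0104) and Mthfsd (-0.59 ± 0.15, adjusted p = 0.0223) lower. Of the 19 glycine and serine genes 2 rose, Sfxn1 (0.63 ± 0.10) and Sfxn3 (0.88 ± 0.16), and 3 fell, with Gcat at -1.47 ± 0.15 (adjusted p = 0.000757) and Dld, a subunit of the glycine cleavage system and of other dehydrogenases, at -0.45 ± 0.11. Of the 8 purine genes 2 fell, Prps1 (-0.41 ± 0.11) and Gart (-0.37 ± 0.10), and of the 13 methionine-cycle genes 1 rose, Sardh (0.62 ± 0.18), and 3 fell, with Gnmt at -1.13 ± 0.27 and Mat2b and Ahcy at -0.40 ± 0.11 and -0.43 ± 0.12. Of the 10 stress regulators and targets Myc alone passed (1.91 ± 0.36, adjusted p = 0.00616). Wild-type TAC array 3 stood apart for the methionine-cycle list, with a summed level of 163 against 34.1 and 31.2 on the other wild-type TAC arrays. Bhmt, betaine-homocysteine methyltransferase, named after its values were seen, was at 7.04 there and at -3.52 or below on the other 11 arrays, and its difference of 3.21 ± 2.43 did not pass (adjusted p = 0.403). Without that array 1 of the 17 folate genes fell and 0 rose, 0 of the 8 purine genes passed, 2 of the 19 glycine and serine genes rose and 1 fell, 1 of the 13 methionine-cycle genes fell and 0 rose, and 1 of the 10 stress genes rose, where 11.1% of all genes passed.

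In transgenic against wild-type hearts after TAC, and in transgenic TAC against transgenic sham hearts, 0 genes of these 5 lists passed, where 4% and 0% of all genes did. In the first of these the smallest p in each list belonged to Tyms (0.49 ± 0.13, limma adjusted p = 0.0637), Sfxn3 (-0.55 ± 0.16, adjusted p = 0.0775), Sardh (-0.47 ± 0.18, adjusted p = 0.156), Prps1 (0.35 ± 0.11, adjusted p = 0.0874) and Asns (2.28 ± 0.67, adjusted p = 0.083). In the second they belonged to Aldh1l1, the cytosolic counterpart of Aldh1l2 (0.39 ± 0.20), Ptdss1 (0.39 ± 0.12), Mat2a (-0.54 ± 0.14), Ppat (-0.45 ± 0.19) and Atf3 (-1.58 ± 0.49), with adjusted p from 0.797 to 0.804. The response to TAC was higher in transgenic than in wild-type hearts for Mtr (1.08 ± 0.23), Gcat (1.40 ± 0.21) and Gnmt (1.73 ± 0.38), and lower for Fpgs (-0.67 ± 0.18), Sfxn1 (-0.80 ± 0.15) and Sfxn3 (-0.92 ± 0.22), with adjusted p from 0.014 to 0.0499. For this difference between the responses 7.08% of all genes passed, 4.18% higher and 2.9% lower. Mtr and Fpgs did not pass without transgenic sham array 2 (adjusted p = 0.0527 and 0.0582), and Mtr, Fpgs, Sfxn3 and Gnmt did not without wild-type TAC array 3 (adjusted p from 0.0667 to 0.113). Tyms passed in transgenic against wild-type TAC hearts without transgenic sham array 2 (adjusted p = 0.0396).

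Levels of Mthfd2, Phgdh and Psat1 were set against those of 15333 named genes well above background on at least 6 arrays, by the root mean square difference of centred log2 levels over the 12 arrays. The gene most like Mthfd2 was Asns (0.54), followed by Phgdh (0.87), Slc7a3 (1.00), Fgf21 (1.11) and Psat1 (1.21). For Phgdh they were Asns (0.44), Slc7a3 (0.60), Tenm4 (0.61), Tfcp2l1 (0.64) and Psat1 (0.70). For Psat1 they were Trib3 (0.27), Slc6a9 (0.36), Adm2 (0.41), Brca2 (0.50) and Soat2 (0.50). Asns thus led the lists of Mthfd2 and Phgdh. Among the other enzymes, Mthfd2 ranked 12 and Aldh1l2 ranked 15 for likeness to Phgdh, while Mthfd2l ranked 4855 and Shmt1 ranked 12395. Between these lay Psph (104), Mthfd1l (189), Shmt2 (492) and Mthfd1 (1443). For likeness to Psat1, Phgdh ranked 11, Aldh1l2 ranked 29 and Mthfd2 ranked 290. These are descriptions over arrays that share the 4 groups and the same scaling.

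Markers of other cell types also differed between the groups. The summed level of the 8 cardiomyocyte markers was 2003 to 2269 on transgenic sham arrays and 2816 to 2943 on wild-type sham arrays, with 0 of 8 past the threshold and 7 of 8 lower without overlap. That of the 10 fibroblast markers was 153 to 170.1 on transgenic sham arrays and 93.4 to 147 on wild-type sham arrays. Of these 10 markers 0 passed the threshold and 6 were higher without overlap. Between the sham groups 22.2% of all genes did not overlap, 8.06% higher and 14.2% lower, and 1.44% passed. In transgenic TAC hearts the fibroblast sum was 143 to 181 and in wild-type TAC hearts 315 to 463. In wild-type hearts after TAC 9 of the 10 fibroblast markers, Postn and Col1a1 among them, and 5 of 7 measured proliferation markers passed in the higher direction, and 7 of 8 cardiomyocyte markers in the lower. Of the endothelial markers 4 of 8 passed as higher and 1 as lower. As higher passed 4 of 7 smooth muscle, 2 of 7 macrophage and 1 of 4 atrial markers. Of all genes tested 21.2% passed in this comparison. The summed level of the proliferation markers was 1.04 to 2.93 in transgenic TAC, 1.07 to 2.50 in transgenic sham, 2.20 to 4.11 in wild-type TAC and 0.94 to 1.16 in wild-type sham hearts. Macrophage, endothelial, smooth muscle, blood cell and atrial markers had 0 of 7, 0 of 8, 0 of 7, 0 of 7 and 0 of 4 past the threshold in transgenic against wild-type sham hearts. The summed level of the smooth muscle and pericyte markers was 44.3 to 59.8 on transgenic sham arrays and 24.2 to 27.7 on wild-type sham arrays, without overlap. Such a sum is carried by the brightest markers. Of these 7 markers 5 were higher and 2 lower, with a median difference of 0.21, and 3 had groups that did not overlap. The summed level of the atrial markers was 2.68 to 3.52 on transgenic sham arrays and 1.92 to 1.98 on wild-type sham arrays, also without overlap. Only 1 of the 4 atrial markers had groups that did not overlap. For the macrophage, endothelial and blood cell markers these sums overlapped between the sham groups. In transgenic against wild-type TAC hearts 5 of 10 fibroblast, 3 of 7 smooth muscle and 1 of 8 endothelial markers passed as lower, where 4% of all genes passed. For the difference between the responses 5 of 8 cardiomyocyte markers passed as higher. As lower passed 6 of 10 fibroblast, 3 of 7 smooth muscle and 1 of 8 endothelial markers, where 7.08% of all genes passed. The part of these markers in the levels of the 10 enzymes was not tested.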

How the data were processed

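Left ventricular RNA was labelled with Cy3 and hybridised to 12 single-colour Agilent arrays, per the labels. The authors' array files hold spot brightness as intensity, per the file headers: a processed signal from Feature Extraction 10.7.3.1, background-subtracted and not scaled between arrays. The authors' deposited table is in log2 units and matches the processed signals scaled by a percentile with each probe centred on its median, with column medians from -0.095 to 0.119. RMA is named in the submitters' processing notes without its role.

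Outlier spots were left out, spots of a probe averaged, log2 taken and each array's 75th percentile subtracted. Of 39429 probes 26424 received a symbol through transcript accessions. Of 12 arrays, 3 or more had to read a probe as well above background for it to be kept, which left 30358, and the brightest probe of a gene was tested, for 25321 genes. Limma 3.58.1 in R 4.3.3 fitted a mean per group over all 12 arrays, with 8 residual degrees of freedom and 1.79 prior ones. Probe-level tests were adjusted over the 30358 probes. On simulated data for transgenic against wild-type sham hearts, over 25159 genes, 47% of 100 genes with a log2 change of 1 and 75% of 100 with a change of 2 were recovered. There were 122 true and 10 false calls. The simulation gave a gene the same spread in every group. Psat1, Mthfd2 and Phgdh spread more on transgenic sham than on wild-type sham arrays, so these shares do not carry over to them. No 2 arrays held identical values.

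The members and gene lists were chosen with earlier results of these data known. The text names all 10 members, in each other list up to 4 genes with the smallest p among those that passed, or up to 2 where none did, and the 5 genes most like 3 of the members. Alternatives, each changing 1 choice, were median scaling, quantile normalization, normexp on median spot brightness (offset 50), the deposited table, probes above background on all 12 arrays or no filter, the mean over probes, outlier spots kept, array weights, a trended robust variance, a fit of the compared groups, slide as a fixed or a random block, a replicate block, and leaving out each array.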

Additional observations from a re-analysis of the deposited data

Results flagged for a closer look

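The response to TAC differed between transgenic and wild-type hearts for 2 of the 10 enzymes by the test of the difference itself, where 7.08% of all genes passed. For Mthfd2, the mitochondrial methylenetetrahydrofolate dehydrogenase, the transgenic response minus the wild-type response was -4.06, from a difference of -1.27 in transgenic hearts, which did not pass, and of 2.79 in wild-type hearts, which did. For Shmt1, the cytosolic serine hydroxymethyltransferase, it was 0.84, from 0.38 in transgenic hearts and -0.46 in wild-type hearts, neither of which passed alone. On wild-type sham array 2 Mthfd2 was not well above background. Neither enzyme passed under quantile normalization, median scaling, normexp background correction or the replicate block. Each lost its call on leaving out any 1 of 9 of the 12 arrays.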

How the results depend on the processing

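Each comparison rests on 3 arrays a group. Between transgenic TAC and transgenic sham hearts 0 of the 10 enzymes passed under every alternative run. For the other comparisons the count moved as follows. In transgenic against wild-type sham hearts 4 passed, against 2 with normexp background correction, 0 in the compared groups alone and 0 with slide as a fixed block, and 2 to 5 on leaving out an array. With median scaling, no filter, the mean over probes or the replicate block 3 passed, without Psat1. With the filter on all 12 arrays 4 passed (9.1% of all genes), with Shmt1, as lower, in place of the untested Mthfd2. In transgenic against wild-type TAC hearts 1 passed, against 0 with normexp, 0 in the compared groups alone, 0 with slide as a fixed block, 2 with the filter on all 12 arrays (20.5% of all genes there), 2 with a trended robust variance (8.65%) and 3 with array weights (17.9%), and 0 to 2 on leaving out an array. In wild-type TAC against sham hearts 1 passed, against 0 with normexp, 0 with slide as a fixed block, 2 with a trended robust variance (23.8% of all genes), 2 in the compared groups alone (23.7%) and 7 with array weights (47.7%), and 0 to 2 on leaving out an array. With the filter on all 12 arrays 1 passed (42.1% of all genes), Shmt1 and not the untested Mthfd2. For the difference between the responses 2 passed, against 0 with quantile normalization, median scaling, normexp, no filter, slide as a fixed block or the replicate block, 1 with the mean over probes, 3 with array weights (12.4% of all genes), 2 with the filter on all 12 arrays, Phgdh and Shmt1, and 0 to 4 on leaving out an array. A fit of the compared groups alone could not be made for this difference, and with the filter on all 12 arrays Mthfd2 and Mthfd1l were not tested. The lists around the pathway were also tested without transgenic sham array 2 and without wild-type TAC array 3, a choice made after the data were seen. Normexp moved the median of all genes in wild-type TAC against sham hearts to 0.25, against -0.13.

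Groups share replicate numbers 1 to 3, and the labels name no pairing. After the group means were removed, arrays of the same number had correlations of -0.388 to 0.22. Without the correlations of arrays with different numbers beside them, these values cannot decide whether the numbers pair the arrays. With the replicate block Psat1 in transgenic against wild-type sham hearts did not pass (3.37, adjusted p = 0.0568 by limma), and the differences in response of Mthfd2 (-4.06, adjusted p = 0.0608) and Shmt1 (0.84, adjusted p = 0.0765) did not pass.

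Of 1280 values of single enzymes under an alternative 67 lost and 23 gained a call, and 38 had the other sign, with adjusted p of at least 0.719 and a size of at most 0.12. In wild-type TAC against sham hearts Mthfd1 measured 0.058 with quantile normalization, 0.014 in the deposited table, 0.035 with slide as a fixed block, 0.0029 with slide as a random block and -0.064 to 0.040 on leaving out an array, and Psph 0.091 with the mean over probes and 0.042 with slide as a fixed block. In transgenic TAC against wild-type TAC hearts Mthfd2l measured -0.018 with quantile normalization and in the deposited table, -0.043 with normexp, -0.014 with array weights and -0.12 to 0.12 on leaving out an array. In transgenic against wild-type sham hearts Mthfd2l measured -0.077 to 0.25 on leaving out an array. In transgenic TAC against transgenic sham hearts Mthfd1 measured 0.11 with slide as a fixed block and -0.084 to 0.035 on leaving out an array. The difference between the responses measured 0.086 with array weights and 0.070 with slide as a fixed block for Mthfd1, 0.015 with array weights and 0.0086 with normexp for Shmt2, 0.014 with slide as a random block for Mthfd2l and 0.047 with slide as a fixed block for Aldh1l2. On leaving out an array it measured -0.078 to 0.047 for Mthfd1, -0.31 to 0.062 for Shmt2, -0.24 to 0.081 for Mthfd2l and -0.56 to 0.081 for Aldh1l2.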
